A study of Homo sapiens with 2 samples.

Results

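Thioredoxin-interacting protein (TXNIP), the related alpha-arrestins ARRDC1, ARRDC2, ARRDC3 and ARRDC4, and the transcription factors MLX, MLXIP (MondoA) and MLXIPL (ChREBP) were examined in the human glioblastoma line U87 under LXR623, an agonist of the liver X receptors (LXR). The 8 genes were taken by symbol, and each had 1 probe set among the 22458 named genes on the array. All 8 passed a filter on dim genes, a mean over both arrays of at least 3.39, the 25th percentile, as did 16902 genes in total. The cells received 20 µM LXR623 or 0.1% DMSO, the solvent, for 24 h in medium with 1.5% serum. Each sample's own label gives its treatment, and that of the LXR623 sample also the 24 h. The serum, and the time of the DMSO sample, come from a text that the labels give for both samples. With n = 1 array for LXR623 and n = 1 for DMSO, replicates were lacking, no test could be made, and a difference describes these 2 arrays only. Values are log2 expression after the authors' RMA normalisation, and differences are LXR623 minus DMSO. On arrays of bulk RNA, fewer cells carrying a transcript and less of it per cell cannot be told apart.

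Alpha-arrestins are adaptor proteins that bring ubiquitin ligases of the NEDD4 family to membrane proteins and so send those proteins to endosomes. TXNIP also binds thioredoxin and promotes uptake of the glucose transporter GLUT1 from the cell surface, which lowers glucose entry. MondoA and ChREBP pair with MLX, respond to phosphorylated glucose and bind carbohydrate response elements, in which a pair of E-box-like hexamers lies 5 bases apart. TXNIP and ARRDC4 are textbook targets of MondoA, and MLXIPL is known as an LXR target in liver.

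To show what precedes the start of the arrestin genes known as glucose-responsive, the 250 bases upstream of TXNIP, at the first of its 2 annotated starts (chr1:145996580-145996829, minus strand) and of ARRDC4 (chr15:97960453-97960702, plus strand) are printed 5′ to 3′ from the RefSeq promoter table of GRCh38.p14. Capitals mark every match to the hexamer CACGNG on either strand.
TXNIP: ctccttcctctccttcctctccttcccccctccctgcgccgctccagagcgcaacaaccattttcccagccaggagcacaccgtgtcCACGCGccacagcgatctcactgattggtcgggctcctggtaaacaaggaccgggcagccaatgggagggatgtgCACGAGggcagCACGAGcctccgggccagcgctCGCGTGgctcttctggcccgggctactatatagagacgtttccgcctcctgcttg
ARRDC4: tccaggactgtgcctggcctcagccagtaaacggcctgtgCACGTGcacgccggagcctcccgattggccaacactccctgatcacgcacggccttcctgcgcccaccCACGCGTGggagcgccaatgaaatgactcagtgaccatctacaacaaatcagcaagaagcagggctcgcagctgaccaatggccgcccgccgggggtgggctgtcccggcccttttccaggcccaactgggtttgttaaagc
In TXNIP the hexamers began 163, 88, 77 and 55 bases before the start, and those at 88 and 77 were separated by 5 bases. In ARRDC4 they began 210, 142 and 140 bases before the start. The last 2 overlap, and no hexamers were 5 bases apart.

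TXNIP was the 1 member that differed at least 1.5-fold. Its value was 8.76 on the LXR623 array and 9.45 on the DMSO array, a difference of -0.69, or 1.62-fold lower. Of all genes kept, 2.01% were lower by 1.5-fold or more and 2.38% higher by as much, and TXNIP ranked 175th from the lowest among 16902. As a guide to scatter, genes were split by mean level into 5 equal groups. In the brightest group, which holds TXNIP, the central 95% of differences ran from -0.46 to 0.53, so TXNIP lay below that range, as by construction 2.51% of kept genes did, with 2.51% above. The difference was -0.73 with each array centred on its own median and -0.68 after removal of a level trend. It did not reach 2-fold, which 0.166% of genes kept did downward and 0.337% upward.

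**Figure D1:**
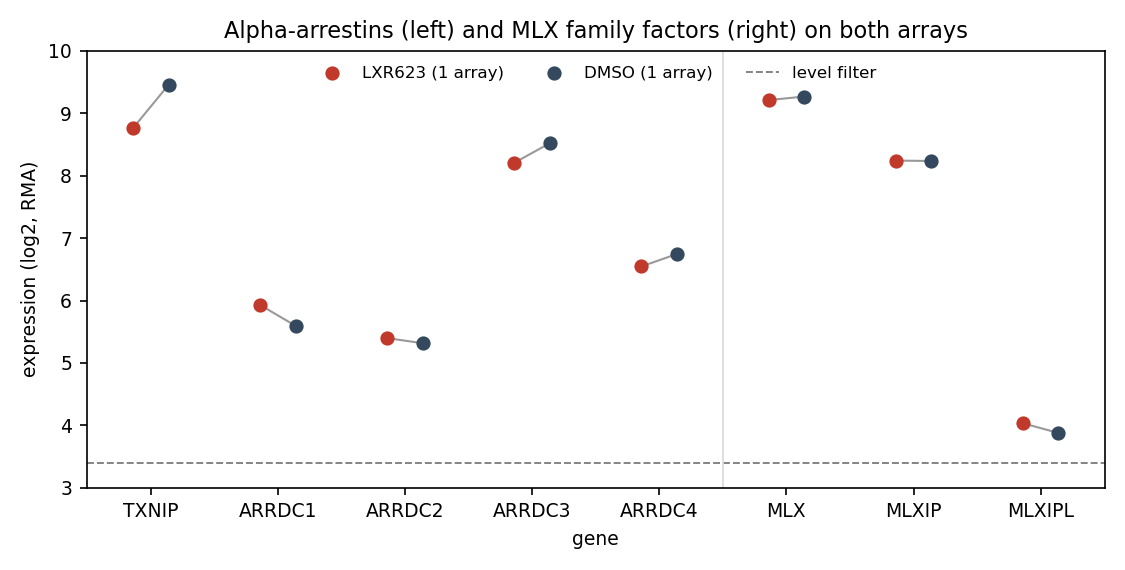
Expression (log2, RMA) of the 5 alpha-arrestins and the 3 MLX family factors, with a red point for the LXR623 array and a dark point for the DMSO array (n = 1 each); the dashed line is the level filter at 3.39. TXNIP shows the widest gap, 8.76 against 9.45, and MLXIP the narrowest, 8.24 against 8.23.

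The other arrestins differed less and in both directions. ARRDC3, which directs the beta2-adrenergic receptor and integrins to endosomes, had 8.21 with LXR623 and 8.52 with DMSO, a difference of -0.31. ARRDC4, which like TXNIP lowers glucose uptake, had 6.55 with LXR623 and 6.75 with DMSO, a difference of -0.20. Both were thus lower, as TXNIP was, but inside the central 95% of genes at their level, which for ARRDC4 ran from -0.58 to 0.56. ARRDC1, which recruits the ESCRT protein TSG101 to bud vesicles from the plasma membrane, had 5.93 with LXR623 and 5.59 with DMSO, a difference of 0.33. ARRDC2 had 5.40 with LXR623 and 5.32 with DMSO, a difference of 0.08. Both lay inside the range of their level group. Over the 5 arrestins, 3 were lower and 2 higher, and the median difference was -0.20. Over all genes kept 48.3% were lower and 48.8% higher, and the median was 0.

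The factors that drive glucose-responsive transcription differed by no more than 0.16 between the arrays. MLX, the shared partner, had 9.21 with LXR623 and 9.27 with DMSO, a difference of -0.06. MLXIP had 8.24 with LXR623 and 8.23 with DMSO, and its difference of 0.01 turned to -0.03 with each array centred on its median. MLXIPL had 4.03 with LXR623 and 3.88 with DMSO, a difference of 0.16. It stood in the dimmest of the 5 groups, where the central 95% of differences ran from -0.55 to 0.65. None of the 3 factors reached 1.5-fold, near the share over all genes kept, of which 2.38% were as high and 2.01% as low. A change in MLXIPL within that scatter was not detectable on these arrays. CDKN2A, a gene that U87 cells have lost, had 4.06 with LXR623 and 3.77 with DMSO. CDKN2A passed the level filter too, so in U87 cells passing it does not show that MLXIPL was expressed.

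**Figure D2:**
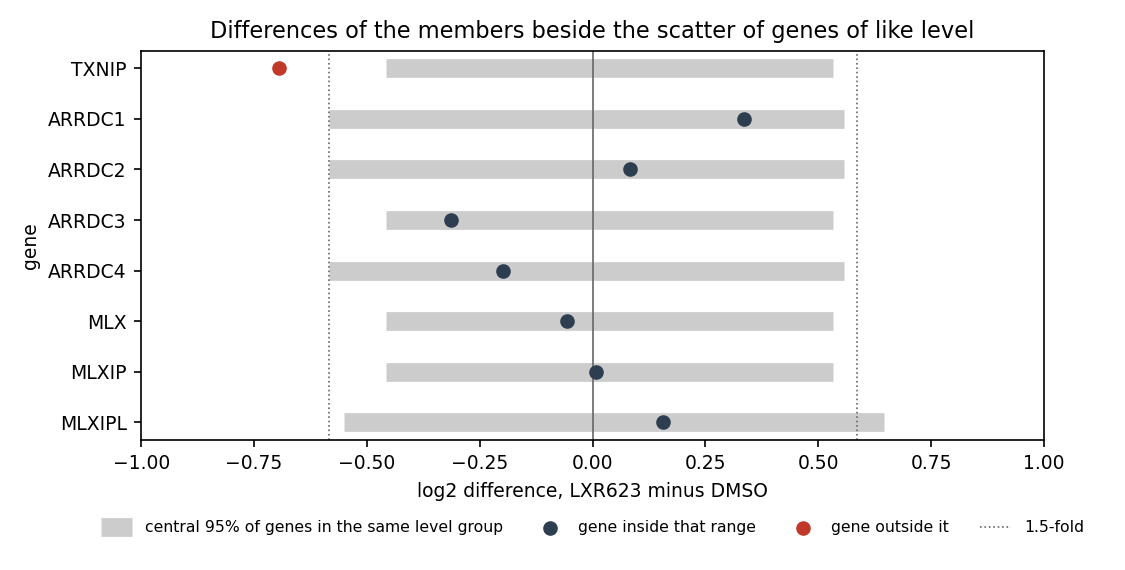
Log2 difference, LXR623 minus DMSO, of each gene (points) beside the central 95% of the differences of all genes in its level group (grey bars); dotted lines mark 1.5-fold. TXNIP at -0.69 lies outside its bar, which ends at -0.46, and the other 7 genes lie inside theirs.

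For scale, known targets of the agonist included genes with wider differences than TXNIP. ABCA1, which exports cholesterol, had 10.09 with LXR623 and 8.30 with DMSO. SREBF1, the gene of SREBP-1, had 7.32 with LXR623 and 6.41 with DMSO. Of the 13 kept genes in a list of LXR receptors, partners and direct targets, 6 were at least 1.5-fold higher and none was lower by as much, against 2.38% and 2.01% of all genes kept. The median was 0.38, or 0.26 with no level filter. Besides ABCA1 and SREBF1 these were SCD, APOC1, ABCG8 and LPCAT3. ABCG8 lay inside the scatter of its level group, and its DMSO value of 3.34 was under the level filter. The targets APOE and MYLIP differed by 0 and 0.11. The LXR alpha gene NR1H3 differed by 0.14, and the LXR beta gene NR1H2 was not analysed here. MLXIPL, at 0.16, did not reach the 1.5-fold of those 6.

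The search was then extended to every annotated start. Among 35116 windows of 250 bases, 23 (0.0655%) held hexamers of the form CACGNG, in either orientation, exactly 5 bases apart, and the window of TXNIP was 1 of them. The hexamer alone was common, at 26.7% of windows, and occurred in 5 of the 11 windows of the members. The palindromic E-box CACGTG, whose matches also count as hexamers, stood in 6.34% of windows and in those of ARRDC4 and MLX, where it began 210 and 50 bases before the start. The LXR element DR4, a direct repeat of AGGTCA with any 4 bases between the copies, was found in 0.0142% of windows exactly and in 0.174% with up to 1 mismatch in its fixed bases, and in no window of the 8 genes. The ATF4-type motif TGATGNAA was in 3.14% of windows and in none of theirs. The box CCAAT, a site of the factor NF-Y that was added after the sequences were seen, was in 32% of windows and in 7 of the 11. All searches covered both strands. A match is a description of letters and not of binding.

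**Figure D3:**
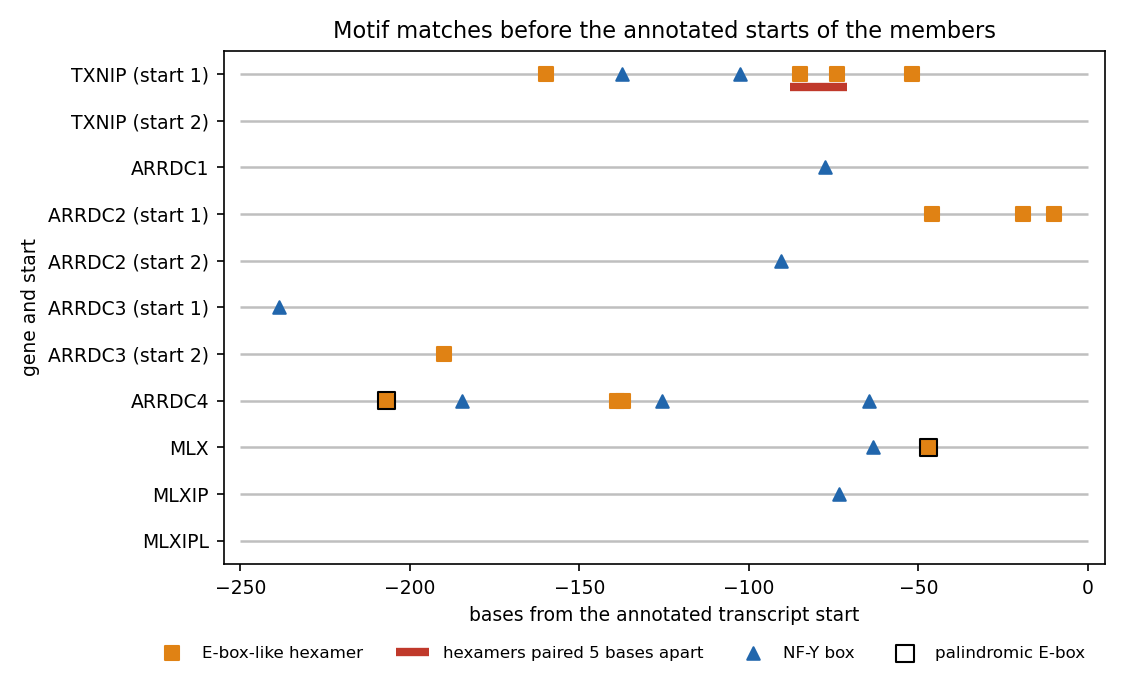
Positions of motif matches in bases before each annotated transcript start, 1 line per start (11 starts of the 8 genes); squares are E-box-like hexamers, open squares palindromic E-boxes, triangles NF-Y boxes, and the red bar marks hexamers 5 bases apart. The bar occurs once, 88 bases before the first TXNIP start.

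Genes that share the paired element with TXNIP differed in both directions. Of the 23 genes, 21 were measured and 19 passed the level filter, 9 of them higher and 10 lower, with a median of -0.07. TXNIP was the 1 gene at least 1.5-fold lower. GFPT1, the first enzyme of the hexosamine pathway, was the 1 at least 1.5-fold higher. Each made up 5.26% of 19, where 1.97% of genes with a window were as low and 1.98% as high. Each share rests on a single gene, and the lower one is TXNIP itself, so it adds nothing to the difference described above. GFPT1 had 10.00 with LXR623 and 9.36 with DMSO, a difference of 0.64. PKLR, the liver pyruvate kinase gene in which a carbohydrate response element is best known, was dim, with 4.40 for LXR623 and 4.28 for DMSO, and differed by 0.12. The elements of these genes are shown because they have the same spacing and different letters, read on the strand of each gene in GRCh38.p14, with the hexamers in capitals.
TXNIP, chr1:145996651-145996667, minus strand: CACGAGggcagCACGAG
GFPT1, chr2:69387317-69387333, minus strand: CGCGTGagcggCGCGTG
PKLR, chr1:155301062-155301078, minus strand: CACGGGgcactCCCGTG
Among 1357 kept genes with CACGTG before a start, 1.33% were at least 1.5-fold lower and 1.4% at least 1.5-fold higher.

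Genes described as MondoA or ChREBP targets in various tissues differed in both directions. Of 28 listed, 23 passed the filter, TXNIP and ARRDC4 included. The median was 0.12, with 4 genes higher by 1.5-fold or more and 2 lower by as much, against 2.38% and 2.01% of all genes kept. The median was 0.21 over the 21 genes other than TXNIP and ARRDC4, and 0.07 over all 23 after removal of the level trend. The 2 lower genes were TXNIP and KLF10, a repressor induced by glucose and by TGF-beta. KLF10 had 7.83 with LXR623 and 8.45 with DMSO, a difference of -0.62 and outside the scatter at its level. The 4 higher genes all serve fatty acid synthesis and are also known targets of SREBP-1. SCD, which desaturates stearate, had 10.93 with LXR623 and 9.34 with DMSO. FASN, the fatty acid synthase, had 8.80 with LXR623 and 7.88 with DMSO. ACACA, which makes malonyl-CoA, had 8.54 with LXR623 and 7.87 with DMSO, and the elongase ELOVL6 had 9.11 with LXR623 and 8.50 with DMSO. When the list was divided after its values were seen, the 6 kept lipid synthesis genes were all higher, with a median of 0.64. The 17 others had a median of 0.03, with 10 higher and 6 lower, of which 2 were at least 1.5-fold lower. None of the 17 was at least 1.5-fold higher, but the split fixed this, since it put all 4 such genes among the 6. The split is a description only, and what sets its parts apart was not tested. Among those 17, BHLHE40, a clock-linked repressor, differed by 0.54, just outside the scatter at its level, and its paralogue BHLHE41 by -0.27. G0S2, an inhibitor of lipid breakdown, differed by -0.51, inside that scatter.

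**Figure D4:**
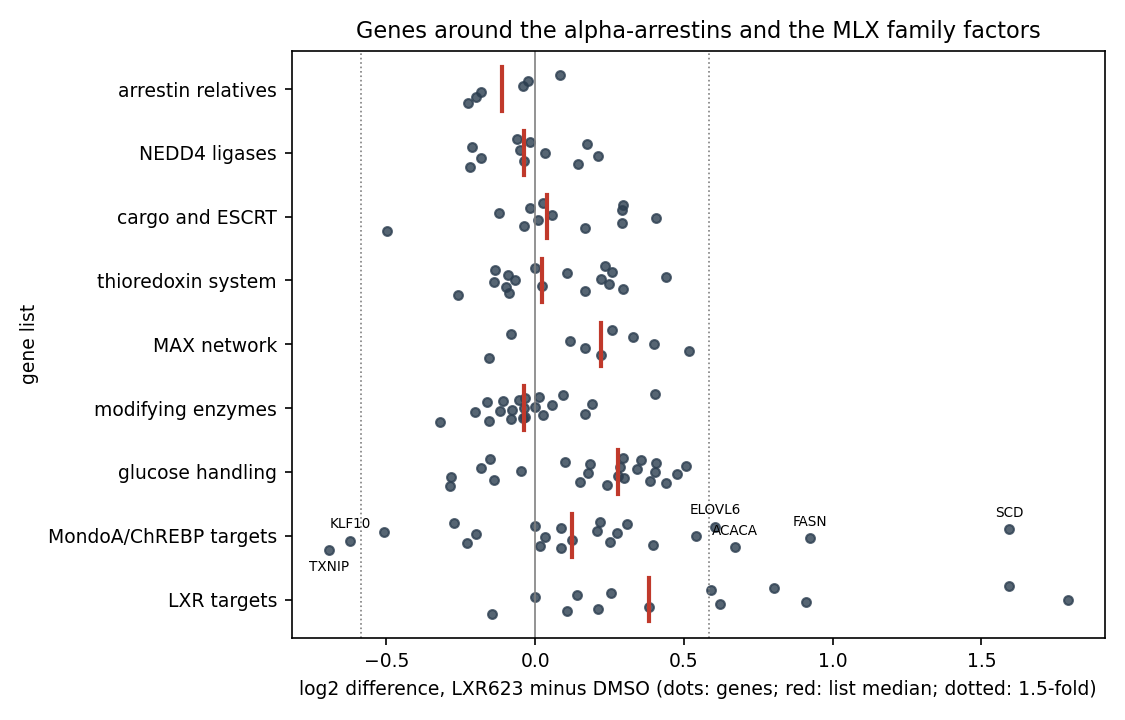
Log2 difference, LXR623 minus DMSO, of each kept gene (points) in 9 lists around the alpha-arrestins and MLX factors; red bars are list medians and dotted lines mark 1.5-fold. In the MondoA/ChREBP target list TXNIP and KLF10 lie at the low end, and ELOVL6, ACACA, FASN and SCD, which is also in the LXR list, at the high end.

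Next, partners of the factors were compared. MLX can pair with MNT, MXD1 and MXD4 besides MondoA and ChREBP, and these proteins are repressors of the MAX network that oppose MYC. MNT had 7.04 with LXR623 and 6.52 with DMSO, a difference of 0.52, just above the 0.51 that bounds the scatter at its level. MXI1 differed by 0.40, MXD4 by 0.33 and MXD1 by 0.26, all inside the scatter at their level. In the list of MAX network genes 7 of 9 were higher, with a median of 0.22, where 48.8% of all genes kept were higher. None of the 9 reached 1.5-fold, near the share over all genes kept, of which 2.38% were as high and 2.01% as low. MAX itself differed by 0.22 and MYC by 0.12. Among 21 genes for kinase subunits, 14-3-3 proteins and transferases known to act on MondoA, ChREBP or TXNIP, none reached 1.5-fold and the median was -0.04. That count too is near the share over all genes kept. The AMPK subunit PRKAB2 differed by 0.40, the 14-3-3 gene YWHAH by -0.32, AKT1 by -0.20 and the O-GlcNAc transferase OGT by 0.19.

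No gene of glucose uptake, glucose phosphorylation or the use of glucose phosphate reached 1.5-fold. Of all genes kept, 2.38% were higher by as much and 2.01% lower, so none in a list of this size is near that share. Of the 23 kept genes for transporters, hexokinases, PFKFB enzymes and the pentose phosphate pathway, 17 were higher and 6 lower, with a median of 0.28, where 48.8% of all genes kept were higher and 48.3% lower. The mean over these genes was smaller, at 0.18. PGD, of the pentose phosphate pathway, differed by 0.51, the glucose 6-phosphate transporter SLC37A4 by 0.48, HKDC1, a hexokinase family member, by 0.44 and the glucose transporter SLC2A3 by 0.41. SLC2A1, which encodes GLUT1, the transporter that TXNIP removes from the surface, had 9.06 with LXR623 and 8.76 with DMSO, a difference of 0.30. Each of these lay inside the scatter at its level.

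In the machinery through which alpha-arrestins act, none of 11 NEDD4 family ligases and adaptors reached 1.5-fold, and differences ran from -0.22 to 0.21. With 2.38% of all genes kept higher by 1.5-fold or more and 2.01% lower, none of 11 is near that share. NEDD4 differed by -0.22, HECW2 by -0.21, HECW1 by 0.21, SMURF2 by -0.18 and ITCH, the ligase of TXNIP, by 0.14. Among 12 kept cargo and ESCRT genes the thrombin receptor F2R, which ARRDC3 helps to sort, differed by -0.50, the transporters SLC2A3, SLC2A1 and SLC2A4 by 0.41, 0.30 and 0.29. The median of 0.04 there became about 0 after median centring. Arrestin relatives outside the 8 genes had a median of -0.11 over 6, with ARRB1 at -0.23, VPS26C at -0.20, VPS26B at -0.18 and ARRDC5 at 0.08. That median was -0.04 without the most extreme gene or with no level filter, and -0.19 with a 50th percentile filter.

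Thioredoxin, the redox protein that TXNIP binds, did not differ beyond scatter. TXN had 10.84 with LXR623 and 10.91 with DMSO, a difference of -0.07. Thioredoxin reductase TXNRD1 differed by 0.44, the peroxiredoxin PRDX6 by 0.30, the methionine sulfoxide reductase MSRA by 0.26 and TXNRD3 by -0.26. Over 17 genes of the thioredoxin system 9 were higher and 8 lower, and the median of 0.02 turned to -0.02 after median centring. Of the inflammasome genes, with which TXNIP is also linked, IL1B had 7.86 with LXR623 and 6.35 with DMSO. NLRP3, the sensor of that complex, was among the other 4 kept genes, which did not reach 1.5-fold. Over all genes kept 2.38% were higher by as much and 2.01% lower.

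The cell line labels were checked, since the culture text given for both samples has HCT116, a line from a colon cancer, where all other labels have U87. Of 18 colon epithelium genes 14 passed the level filter, and all 18 stayed under 6 on the LXR623 and the DMSO array. Of these, EPCAM differed by -0.57, KRT19 by 0.41, LGALS4 by 0.35 and CLDN3 by 0.33, all inside the scatter at their level. CDKN2A, CDKN2B and MTAP, which U87 cells have lost, served as a guide to the signal of absent transcripts and ran from 3.39 to 4.06 with LXR623 and from 3.04 to 3.77 with DMSO. The filter was passed by CDKN2A and CDKN2B too, so passing it does not show that a gene is expressed and does not tell the lines apart. Levels of different probe sets are not comparable, so the values set side by side here do not settle which line was used. Of 13 measured glioma line genes 11 passed it. VIM stood at 12.46 with LXR623 and 12.09 with DMSO, but GFAP at 4.68 with LXR623 and 4.76 with DMSO and OLIG2 at 4.81 with LXR623 and 4.45 with DMSO also stayed under 6, and S100B and SOX2 were under the filter. Over the 11 kept glioma line genes 8 were lower and 3 higher with LXR623, with a median of -0.18. Against 2.01% of all genes kept, 2 were lower by 1.5-fold or more. They were SLC1A3, an astrocyte glutamate transporter, at -0.89 and CAV1, of caveolae, at -0.66. VIM and OLIG2 differed by 0.36 and LOX by 0.31. The part of these markers in the TXNIP difference was not tested.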

How the data were processed

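Total RNA of U87 cells was labelled with biotin and hybridised to 1 Affymetrix array per condition, grouped by the labels. Each deposited value is a log2 level of a probe set, which per the labels the authors made by RMA with affy 1.36.1 in R 2.15.1; the genome build is not given in the sources used here. RMA subtracts background, quantile normalises and summarises probes, so a shift shared by most genes is removed. Levels of different probe sets are not comparable.

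Of 23786 probe sets 22458 had 1 symbol, 1328 had none and none had several. Genes were kept if their average level was at or above 3.39, the 25th percentile of probe set means. The log2 difference and the central 95% within 5 level groups were computed. No p-value was computed, since precision is limited by having 1 array per group.

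The 8 genes, 13 lists and motifs were chosen with earlier results of these data known. All 8 genes were named, and from each list the genes past 1.5-fold or else up to 4 with the widest difference; BHLHE40, BHLHE41, G0S2, NR1H3, MAX, MYC, ITCH, TXN, NLRP3, the genes with the paired element, APOE, MYLIP, VIM, GFAP, OLIG2, LOX, S100B, SOX2, the 3 genes that U87 has lost and, in lists with a wider gene, SLC2A1 were named outside that rule after their values were seen. TGFBI, FN1, CD44, CDH2 and NES were likewise named outside that rule after their values were seen. Motifs were searched in RefSeq promoter windows (GRCh38.p14). The protein comparison that had been planned was not run. Alternatives were median centring, a lowess trend on level (span 0.3), no filter, a 50th percentile filter, a 2-fold threshold, the mean, and leaving out the most extreme gene or sets of identical value. Python 3.11.15, numpy 2.4.6, pandas 2.3.3, statsmodels 0.14.6 and matplotlib 3.10.9 were used.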

Additional observations from a re-analysis of the deposited data

How the results depend on the processing

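The differences of the 8 genes gave 31 values under alternatives, and each moved by less than the SD estimated from genes at a like level. Most of these values were fixed in advance. A level filter cannot change a gene's own difference, and median centring lowers every difference by 0.040. Only removal of the level trend could move the genes by different amounts. MLXIP changed sign, to -0.03 with median centring, and MLXIPL was lost under the 50th percentile filter. At the 2-fold threshold 0 arrestins were lower, and the genes past it were 57 higher and 28 lower. With the 50th percentile filter, under which fewer genes were kept, 218 were past 1.5-fold upward and 218 downward. Median centring turned the split of genes past 1.5-fold, with 319 higher and 427 lower (42.8% higher), against 402 and 339 as deposited (54.3%), since it lowers every difference by 0.040. For list medians the yardstick was a standard error over the genes of the list. It is that of a mean and takes genes on the same arrays as independent, so it measures no error between samples. Of 71 list medians under alternatives 7 moved by more than this yardstick. These were the arrestin relatives (-0.04 without the level filter and without the most extreme gene, -0.19 with the 50th percentile filter), the modifying enzymes (-0.08 with median centring), the colon genes (0.28 with the 50th percentile filter), and the glucose and LXR lists (means of 0.18 and 0.56). The inflammasome median of -0.02 moved less, but its mean of 0.15 had the other sign. Averaging of several probe sets was not needed. No paired analysis was possible because LXR623 and DMSO had a single array apiece. Signal over background was not analysed here, and MLXIPL, as a dim gene, is resolved least.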

Other observations

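The protein-coding genes next to the 8 loci were looked at after the other results were seen, with up to 3 taken on each side. Of 47 neighbours 42 passed the level filter, and 0 of these were at least 1.5-fold higher or lower on these 2 arrays, with a median difference of 0.05. Over all genes kept 2.38% were as high and 2.01% as low, so 0 of 42 is near that share. Around TXNIP, POLR3GL differed by -0.12, LIX1L by -0.06 and ANKRD34A by 0.18 on one side, and NBPF10 by -0.08 and NOTCH2NLA by 0.25 on the other, where HJV was under the filter. NBPF10 and NOTCH2NLA belong to families with near-identical copies, so their values are uncertain. The neighbour with the lowest difference was NR2F1, a nuclear receptor gene beside ARRDC3, at -0.57, and the highest was TBL2 beside MLXIPL at 0.52. Both lay outside the central 95% of their level groups, which ended at -0.46 for NR2F1 and at 0.51 for TBL2. By construction 2.51% of kept genes lie below such ranges and 2.51% above.

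Among the kept genes with the paired hexamers before a start, SIL1, a cofactor of the ER chaperone BiP, differed by 0.41, MTHFS, which acts on folates, by -0.49, and HPF1, a partner of PARP enzymes, by -0.47. All 3 lay inside the scatter at their level.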
